A study of Anastrepha ludens with 9 samples.

Results

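The RNA pool of cellularization embryos of Anastrepha ludens, the Mexican fruit fly, was set against that of syncytium embryos, using 6 of the 9 libraries of the series. Cellularization embryos had a collection window of 9 to 18 h and syncytium embryos one of 0 to 9 h, with 3 libraries of each, taken by their stage labels. All embryos were kept in water at 25 °C, and the libraries were made from total RNA of whole embryos, with no treatment or genetic change named in the labels. The labels give no strain, and they do not say how many embryos or egg batches went into a library. The p-values therefore refer only to how these libraries separate by stage.

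In flies, an egg is loaded with maternal RNA, and the first nuclear divisions run in a shared cytoplasm, the syncytium. Membranes then grow down between the nuclei and close them into cells, which is cellularization. In Drosophila melanogaster this step goes with the clearance of many maternal RNAs and the main start of transcription from the embryo's own genome, and many of the earliest embryonic transcripts there come from short genes with few introns. The comparison asks how the pool of RNA differs between the stages before and during the closing of cells.

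Each stage was quantified by its authors on an assembly of its own, so that contig names do not carry over and the pools were compared as distributions. An assembled gene is the set of contigs that share a gene name in the assembly. Genes whose longest contig has 1000 bases or more, called long genes, numbered 15200 of 76713 assembled genes at cellularization and 14243 of 45798 in the syncytium. TPM, a level that divides reads by contig length and sums to the same total in each library, was summed per gene and rescaled to 1000000 over the long genes of each library, and this rescaled TPM is the scale of every level below. A difference between stages cannot be told apart here from a difference between their assemblies. None of the 114993 contig names of cellularization or the 78014 of the syncytium, nor of the gene names made from them, matched the RefSeq gene table of the species (0 matched), so no gene symbol is given and the stage labels could not be checked against marker genes. RNA levels from whole embryos are relative, and fewer cells that hold an RNA cannot be told apart from less of it per cell.

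The cellularization libraries held 32599581, 33681067 and 29226591 estimated counts, against 30588919, 29413974 and 51201882 in the syncytium libraries. Long genes took 92.7%, 91.7% and 93.2% of these counts at cellularization and 94.0%, 93.7% and 93.8% in the syncytium. A long gene near 10 TPM rested on a median of 265 to 312 estimated counts at cellularization and 260 to 466 in the syncytium. Whether levels at that height are limited more by counting or by the spread between libraries was not tested. No pair of replicates was close to sampling noise, with a chi-square per degree of freedom of 37.2 to 106 between cellularization libraries and 20.8 to 25.3 between syncytium libraries. A difference was called where no library of either stage lay among those of the other, and the two-sided exact permutation p of such a difference is 0.1, the smallest that 3 against 3 libraries can give. Of 40 measures tested, 37 did not overlap and 3 did, and the Benjamini-Hochberg adjusted p of the 37 was 0.108. The measures share the same pool and are not independent.

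At cellularization, a few long genes took a larger part of the RNA pool and the typical long gene stood at a lower level. The 10 most abundant long genes held 20.8%, 22.5% and 18.8% of the pool in the cellularization libraries, against 13.4%, 13.7% and 13.9% in the syncytium libraries. Every cellularization library was above every syncytium library, and the means were 20.7% ± 1.86 and 13.7% ± 0.271 (SD, n = 3 each; exact permutation p = 0.1). The 100 most abundant long genes held 39.6% ± 3.05 at cellularization and 29.6% ± 0.451 in the syncytium, and the 1000 most abundant held 68.2% ± 2.00 and 59.8% ± 0.457, also with no overlap. The number of long genes that together held 50% of the pool was 254, 194 and 314 at cellularization and 552, 525 and 519 in the syncytium. The effective number of long genes, taken from the Shannon entropy of their shares, was 1542 ± 234 at cellularization and 2649 ± 60.3 in the syncytium, a ratio of 0.582. This number would equal the count of genes if all had the same level. The difference in the top 10, 7.03 percentage points, was 4.16 in TPM as deposited, 2.83 for single contigs of 1000 bases or more and 12.8 among genes with a longest contig of 2000 bases or more, without overlap in any of them.

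The median long gene stood at 11.4, 11.3 and 12.7 TPM in the cellularization libraries and at 20.8, 20.4 and 20.5 TPM in the syncytium libraries. The stages did not overlap, and the ratio of their means was 0.573. Without the 100 most abundant long genes of each library, the medians were 19.2 TPM at cellularization and 28.8 TPM in the syncytium, again with no overlap. Among the 10000 most abundant long genes of each library, a number that is the same for both assemblies, they were 26.3 and 36.5 TPM. Long genes at 10 TPM or more numbered 8018, 8029 and 8303 at cellularization and 9272, 9225 and 9226 in the syncytium, and those at 100 TPM or more 1518, 1406 and 1617 against 1863, 1815 and 1817. Both counts were lower at cellularization in every library. At the lowest and highest thresholds the order differed. Long genes at 1 TPM or more were more numerous at cellularization, with 13999, 14284 and 13418 against 13294, 13202 and 13310, and those at 1000 TPM or more overlapped, with 113, 110 and 107 against 102, 107 and 107 (exact permutation p = 0.3). The number at 1000 TPM depended on the processing, and without cellularization replicate 3 it did not overlap, at means of 111.5 and 105.3. It was higher at cellularization without overlap in TPM as deposited, at means of 75.0 and 61.3, and lower without overlap when TPM was summed per component, the contigs that share a component name, at 119 and 128. The assembly of cellularization lists more long genes, and without the rescaling the numbers at 1 TPM overlapped, at means of 13161 and 12846.

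**Figure D1:**
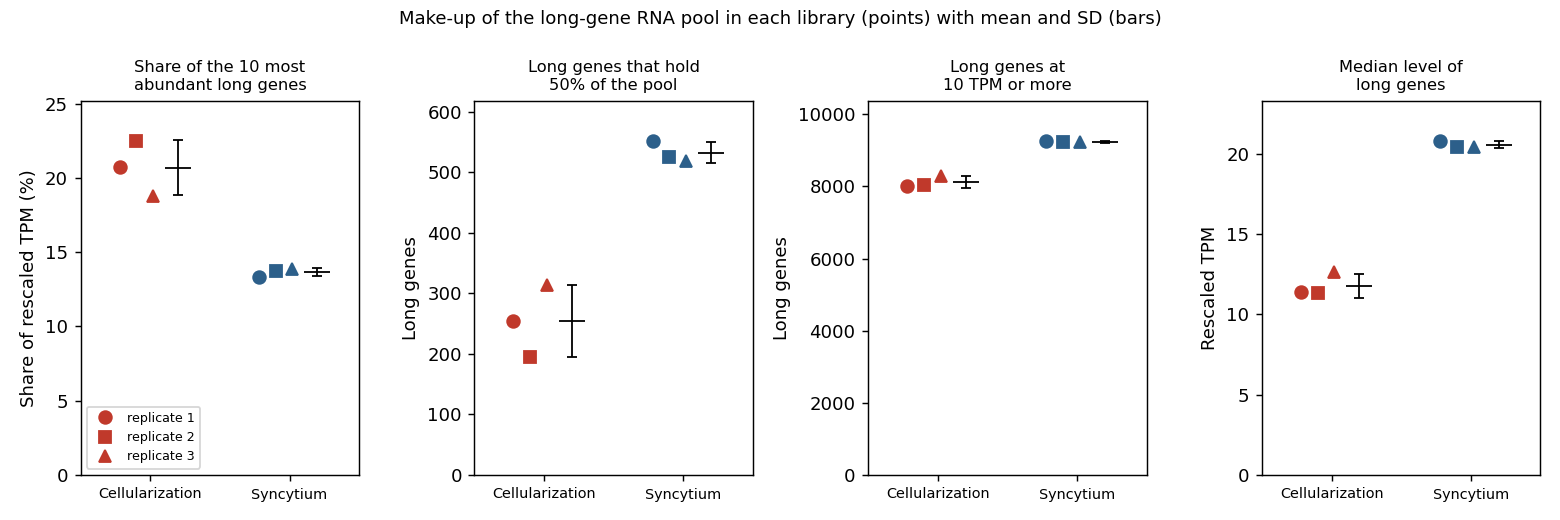
Make-up of the long-gene pool, with 1 point per library (circle, square and triangle for replicates 1, 2 and 3) and the mean and SD as bars; the vertical axes give the percent of rescaled TPM in the 10 most abundant long genes, the number of long genes that hold 50% of the pool, the number at 10 TPM or more and the median rescaled TPM. In each panel the cellularization libraries (left) lie on the other side of a gap from the syncytium libraries (right), with 194 to 314 against 519 to 552 genes in the second panel.

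Genes were next matched by rank, so that the most abundant gene of a library was set against the most abundant of another, whatever its identity. The profiles crossed. Over the 14059 ranks that every library fills, all cellularization libraries were higher at 8.96% of ranks and all were lower at 79.8%. Neighbouring ranks share genes and totals, so these shares describe the curves and are no count of independent results. Most ranks with higher levels lay at the low end of the curve, with 1161 of the 1260 in a run from rank 12899 to 14059. Near the top, cellularization was higher without overlap at ranks 1 to 5, 19 to 99 and 109 to 117. It was lower without overlap at every rank between 327 and 11496.

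At rank 1 the level was 52938, 61071 and 41486 TPM in the cellularization libraries and 37793, 37896 and 38356 TPM in the syncytium libraries. At rank 3 the ratio of the stage means was 1.66, the highest of the 9 ranks fixed for reading the curve, with 31458, 30754 and 35711 TPM against 20191, 19648 and 19146 TPM. Rank 10 went the other way, at a mean of 4933 TPM at cellularization and 5510 TPM in the syncytium, so the excess at the top rests on the leading handful of genes and not on the whole of the top 10. The genes at ranks 1 to 5 held 17.6% of the pool at cellularization and 10.3% in the syncytium, while those at ranks 6 to 10 held 2.94% and 3.31%. A further excess stood below them, with 2632 TPM at cellularization and 2325 TPM in the syncytium at rank 30, and the 90 genes at ranks 11 to 100 held 18.9% ± 1.21 against 15.9% ± 0.179 of the pool (no overlap). Among genes with a longest contig of 2000 bases or more these ranks held 15.4% in both stages, and the libraries overlapped (exact permutation p = 0.9).

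At rank 100 the stages overlapped, with means of 1094 and 1055 TPM. At rank 300 cellularization was lower without overlap, at 407 TPM against 419 TPM in the syncytium. It was also lower at rank 1000, with 145 against 164 TPM, at rank 3000, with 51.4 against 63.9 TPM, and at rank 10000, with 5.30 against 7.14 TPM. The ratios of the stage means at these ranks were 0.971, 0.886, 0.804 and 0.743. Up to rank 10000 the ratio was lowest at rank 7194, where cellularization stood at 0.658 times the syncytium level, so the relative gap narrowed past that rank. The 4000 genes after rank 1000 held 24.1% ± 1.72 of the pool at cellularization and 29.4% ± 0.320 in the syncytium, and genes below rank 5000 held 7.76% ± 0.308 and 10.8% ± 0.147. The share that was larger at the top was thus smaller among genes of middle and low level. Every library is scaled to the same total, so a larger share at the top must leave a smaller share for the other ranks. These values do not tell whether genes of middle level fell in amount. From rank 12899 on, at levels of 1.61 TPM and below at cellularization and 1.30 TPM and below in the syncytium, cellularization was higher again; its assembly lists more long genes, so the end of that curve also lies farther out.

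**Figure D2:**
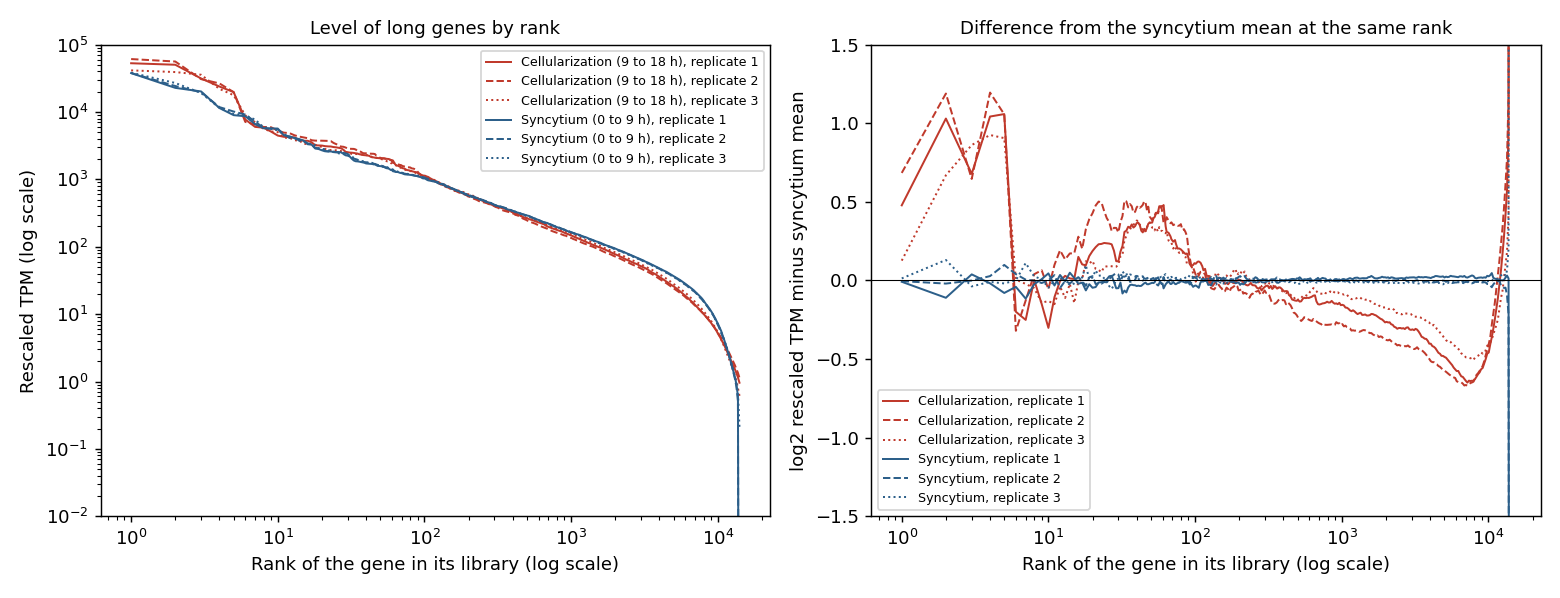
Left, rescaled TPM (log scale) of the long genes of each library by rank (log scale), with red lines for the 3 cellularization and blue lines for the 3 syncytium libraries; right, the same as the log2 difference from the syncytium mean at each rank. The red lines lie above zero at ranks 1 to 5 and 19 to 99 and below it from rank 327 to 11496, and the blue lines stay near zero until the last ranks, where few counts remain and the lines leave the plot.

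The level of an abundant long gene was divided among contigs of different length. The leading contig of a gene is here the contig with the highest mean TPM. The gene with the highest mean at cellularization, TRINITY_DN11_c0_g1, stood at 50294, 61071 and 41486 TPM. It has 8 contigs, the longest of 7921 bases, and 58.3% of its TPM lay on a contig of 962 bases. By estimated counts, which grow with length, its largest part was instead a contig of 7320 bases with 48.7%. The gene that follows, TRINITY_DN42_c0_g1, stood at 52938, 56155 and 39165 TPM and was the most abundant in replicate 1. Its longest contig has 4416 bases, and 93.2% of its TPM lay on a contig of 2011 bases. Both genes were lowest in cellularization replicate 3.

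In the syncytium, TRINITY_DN708_c0_g1 stood at 37793, 37896 and 38356 TPM, with a longest contig of 2686 bases and 99.3% of its TPM on a contig of 2610 bases. TRINITY_DN3705_c0_g1 stood at 22820, 24295 and 26959 TPM, with a longest contig of 1497 bases and 99.8% of its TPM on a contig of 1414 bases. In both of these genes the leading contig and the longest contig were nearly the same length. These 4 genes were picked by level within their stage. Whether any of them is the same gene in both assemblies was not analysed here.

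Among the other most abundant genes of both stages, the gap between longest and leading contig was wide in some and small or absent in others. The gene at rank 4 has a longest contig of 9075 bases, but 99.9% of its TPM lay on a contig of 617 bases, and its level was 23901, 30754 and 22032 TPM. The gene at rank 7 likewise has a longest contig of 7870 bases and 98.5% of its TPM on a contig of 726 bases. The gene at rank 3 has a longest contig of 3696 bases and 95.4% of its TPM on a contig of 2553 bases. The genes at ranks 6, 8 and 10 are single contigs of 1081, 1646 and 2686 bases. In the syncytium, the genes at ranks 4, 8 and 9 have longest contigs of 2696, 1739 and 2189 bases and leading contigs of 1372, 863 and 895 bases. The gene there at rank 5 is led by its longest contig, of 5650 bases. Of the 10 most abundant genes, 3 at cellularization and 2 in the syncytium were led by a contig under 1000 bases, and 3 and 1 have a longest contig of 5000 bases or more.

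**Figure D3:**
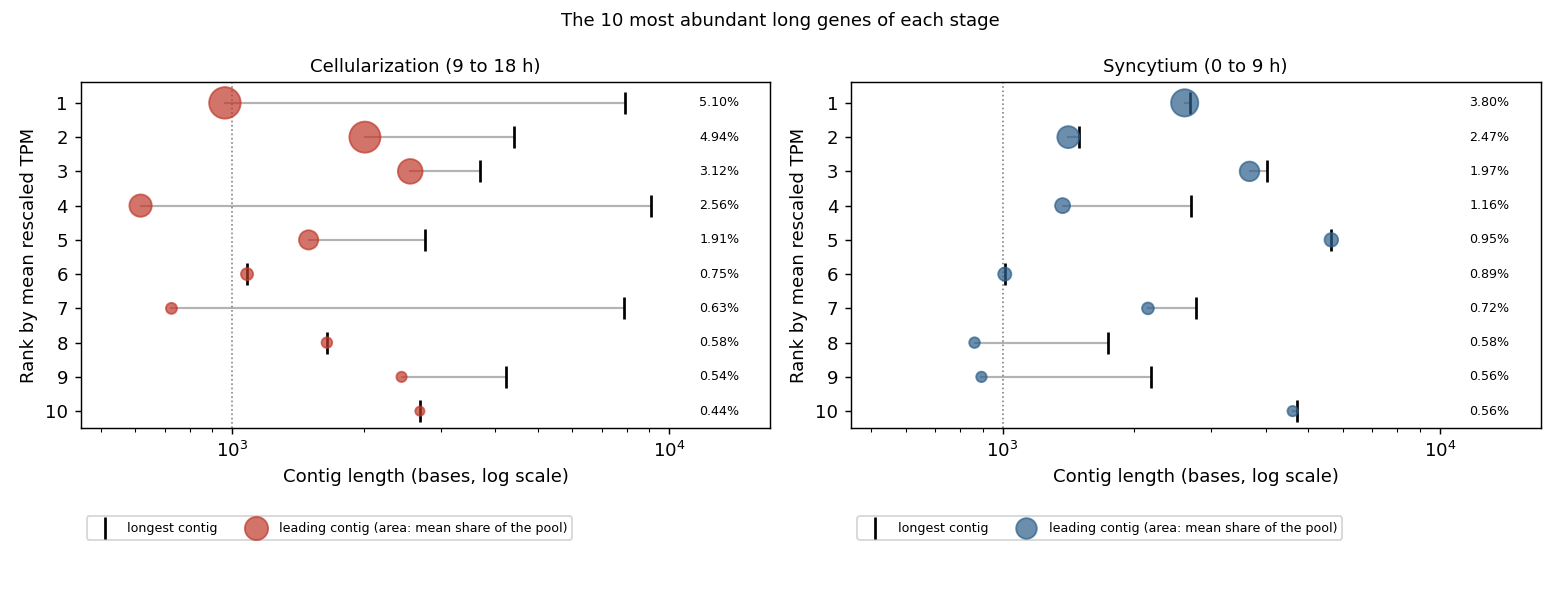
The 10 genes with the highest mean rescaled TPM at cellularization (left) and in the syncytium (right), by rank; the horizontal axis gives contig length in bases (log scale), black ticks the longest contig, filled circles the leading contig with an area that grows with the mean share of the pool, which is printed at the right, and the dotted line 1000 bases. At cellularization the genes at ranks 1, 4 and 7 have longest contigs of 7921, 9075 and 7870 bases while their leading contigs have 962, 617 and 726 bases.

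The length profile of the pool therefore depends on which contig stands for a gene. By the longest contig, genes that have a long contig took more of the pool at cellularization. Genes of 5000 bases or more held 16.8%, 18.2% and 15.9% in the cellularization libraries and 10.6%, 10.1% and 9.91% in the syncytium libraries, and genes of 3000 to under 5000 bases held 26.1% ± 0.728 against 21.4% ± 0.409. Genes of 2000 to under 3000 bases held less, at 21.6% ± 0.757 at cellularization and 28.9% ± 0.0753 in the syncytium, as did genes of 1000 to under 1500 bases, at 19.2% ± 0.391 and 23.1% ± 0.584. None of these 4 classes overlapped between stages (exact permutation p = 0.1 each), while genes of 1500 to under 2000 bases did, at 16.2% and 16.5% (p = 0.2). Without cellularization replicate 3 or without syncytium replicate 1 this last class did not overlap, at differences of -0.359 and -0.351 percentage points. The length at which 50% of the pool was reached, the TPM-weighted median, was 2679 ± 29.0 bases at cellularization and 2386 ± 37.0 bases in the syncytium.

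By the leading contig the order turned round for the weighted median and for the longest classes. The TPM-weighted median was 1802 ± 67.4 bases at cellularization and 2035 ± 20.1 bases in the syncytium, and genes led by a contig of 5000 bases or more held 4.90% ± 0.312 and 6.10% ± 0.241 (no overlap in either). Genes led by a contig of 3000 to under 5000 bases also held less at cellularization, with 13.7% ± 0.715 against 18.6% ± 0.443. Long genes led by a contig under 1000 bases held 15.6%, 17.9% and 14.3% of the pool in the cellularization libraries and 5.82%, 5.97% and 6.01% in the syncytium libraries. They number 954 of the 15200 long genes at cellularization (6.28%) and 646 of 14243 in the syncytium (4.54%), so their share of the pool differed far more than their number. At cellularization they include TRINITY_DN11_c0_g1, which alone held 5.10% of the pool on average. By TPM it is led by a contig of 962 bases, but by estimated counts by one of 7320 bases. Its class, and with it these shares, depends on which of the quantities picks the leading contig.

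The difference lay in the most abundant of the genes led by a contig under 1000 bases. Among the 100 most abundant long genes, 23 were led by a contig under 1000 bases at cellularization and 13 in the syncytium. Those in the top 10 held 8.28% and 1.15% of the pool, those at ranks 11 to 100 held 4.72% and 1.77%, and those below rank 100 held 2.97% and 3.02%. In the class of 5000 bases or more, genes led by a contig under 1000 bases held 8.59% ± 1.49 of the pool at cellularization and 0.131% ± 0.0037 in the syncytium. Once the 10 most abundant genes of each stage were set aside, the class held 11.0% ± 0.191 at cellularization and 10.7% ± 0.428 in the syncytium, and the libraries overlapped (exact permutation p = 0.4). Without the 10 most abundant genes of each library, the classes from 3000 to under 5000 and from 1000 to under 1500 bases overlapped as well, at means of 22.0% and 21.8% for the longer and 22.9% in both stages for the shorter. Without the 100 most abundant genes of each library, the class of 5000 bases or more held 12.6% at cellularization and 11.2% in the syncytium, with no overlap. Each share is of the pool left after the removal, and the 100 genes removed had held 39.6% and 29.6%. The difference of 1.37 percentage points is therefore no remainder of the 6.79 in the full pool. Of the full pool, genes of this class among the 10 most abundant of each stage held 8.02%, 9.90% and 6.92% at cellularization. In the syncytium they held 0.898%, 1.02% and 0.936%. By longest contig, the excess of very long genes in the full pool thus lay largely in these genes. By estimated counts, contigs under 1000 bases of long genes held 4.22% ± 0.571 at cellularization and 1.61% ± 0.0551 in the syncytium.

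**Figure D4:**
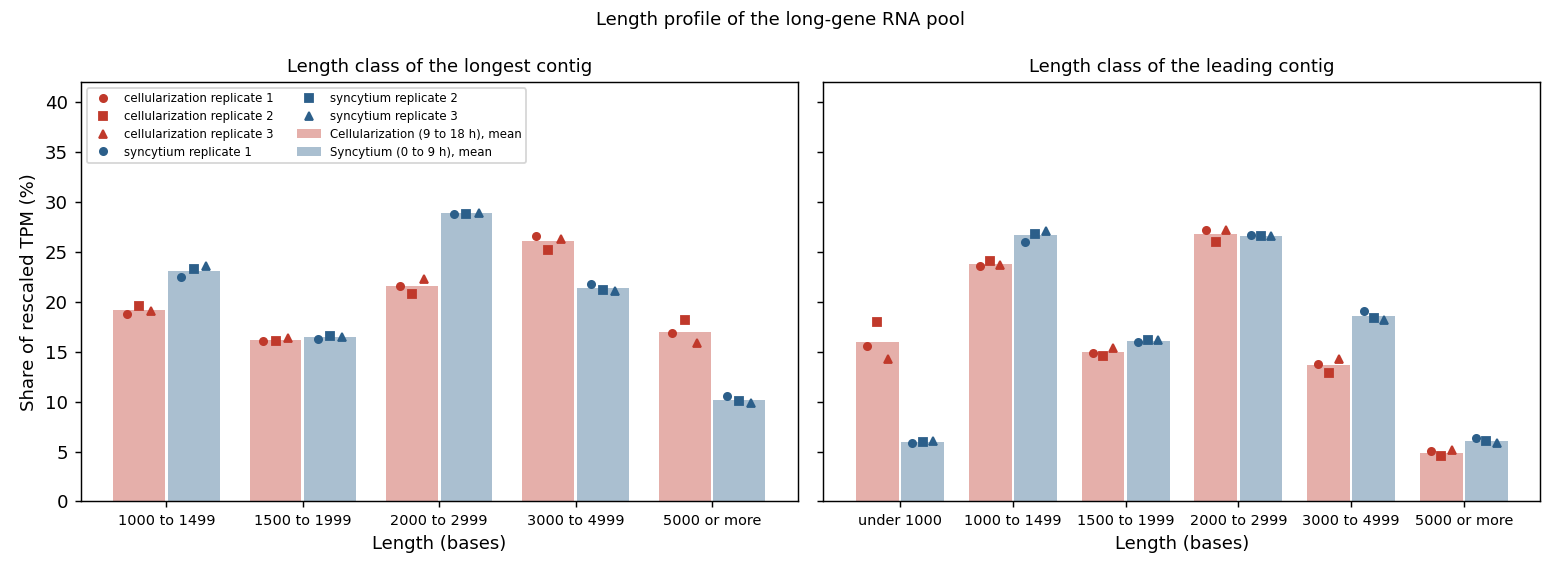
Share of the rescaled TPM of each library (points) and stage means (bars, cellularization left of syncytium) by the length class of the longest contig (left) and of the leading contig (right) of each long gene. Genes of 5000 bases or more hold 17.0% against 10.2% by the longest contig, but 4.90% against 6.10% by the leading contig, where the class under 1000 bases holds 16.0% against 5.94%.

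The greater concentration at cellularization did not rest on the genes with short leading contigs alone. With the pool limited to genes whose leading contig has 1000 bases or more, the 10 most abundant genes held 16.3% at cellularization and 14.2% in the syncytium, 370 and 539 genes held 50% of the pool, and the median gene stood at 14.4 and 22.4 TPM. All cellularization libraries remained on the same side of all syncytium libraries in these 3 measures, but the difference in the top 10 was 2.02 percentage points in place of 7.03.

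Within every length class the typical gene stood lower at cellularization. This included the classes of 3000 to under 5000 and of 5000 bases or more, which by longest contig held more of the pool there. The median level of genes of 1000 to under 1500 bases was 3.54, 3.80 and 3.21 TPM in the cellularization libraries and 7.07, 6.91 and 6.92 TPM in the syncytium libraries, a ratio of 0.505. The ratio was 0.554 for genes of 1500 to under 2000 bases, 0.588 for 2000 to under 3000 bases, 0.661 for 3000 to under 5000 bases and 0.874 for 5000 bases or more. The stages did not overlap in any class, and the ratio came closer to 1 with each longer class. For genes of 5000 bases or more, the medians were 20.3 ± 1.14 and 23.2 ± 1.08 TPM. Without the 10 most abundant genes of each library they were 25.5 and 26.9 TPM with overlapping libraries, and without the 100 most abundant 33.4 and 32.7 TPM, so the call in this class ended with either removal. It also ended for single contigs, at 2.76 and 2.94 TPM, and among genes with a leading contig of 1000 bases or more, at 23.9 and 24.8 TPM.

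The share of genes that reached 10 TPM was lower at cellularization without overlap in all 5 length classes. It was 31.8% ± 0.629 at cellularization and 44.3% ± 0.378 in the syncytium for genes of 1000 to under 1500 bases, 49.2% ± 0.999 and 59.3% ± 0.0622 for 1500 to under 2000 bases, 58.8% ± 1.42 and 69.8% ± 0.0932 for 2000 to under 3000 bases, 66.1% ± 1.40 and 78.1% ± 0.277 for 3000 to under 5000 bases, and 72.4% ± 1.27 and 78.0% ± 1.52 for 5000 bases or more. The ratio of the stage means was 0.718 in the shortest class and 0.929 in the longest, while the gap in percentage points did not narrow steadily with length. The assemblies list 3899 and 3353 genes of 1000 to under 1500 bases and 1729 and 1709 of 5000 bases or more, so the shorter class has more members at cellularization and the longest hardly does. Across all long genes, longer genes tended to have higher levels in every library, with Spearman coefficients between longest contig and TPM of 0.310, 0.301 and 0.310 at cellularization and 0.230, 0.210 and 0.215 in the syncytium. With the length of the leading contig the coefficients were lower, at 0.240, 0.228 and 0.248 at cellularization and 0.185, 0.165 and 0.170 in the syncytium. Genes within a library are not independent, and these coefficients are given as a description. The tendency did not hold throughout the abundant genes. At cellularization the median longest contig was 1739 bases at ranks 11 to 100 and 2698 bases at ranks 1001 to 5000. In the syncytium it was 1676.5 and 2620.5 bases.

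The cellularization libraries also differed more among themselves than the syncytium libraries did. Genes of a stage can be followed across its own libraries, which share an assembly. Among the 10 most abundant genes of a stage the median coefficient of variation between its 3 libraries was 0.163 at cellularization and 0.0273 in the syncytium. It was 0.133 and 0.0367 for ranks 11 to 100, 0.101 and 0.0399 for the 900 genes after rank 100, and 0.129 and 0.0563 for the 4000 genes after rank 1000. Of the 1000 most abundant long genes, 124 at cellularization and 6 in the syncytium differed 1.5-fold or more between the highest and the lowest library, and 36 and 1 differed 2-fold or more.

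Of those 124 genes, 86 were highest in replicate 3 and 85 were lowest in replicate 2, while replicate 1 was at an extreme in few, highest in 3 and lowest in 6. Replicates 2 and 3 were the pair farthest apart, with a Spearman coefficient across genes of 0.939, against 0.965 and 0.959 for the other pairs and 0.976 to 0.979 in the syncytium. The same libraries marked the ends of the pool measures. Replicate 2 had the highest share in the 10 most abundant genes and replicate 3 the lowest, and the percent of deposited TPM outside long genes had that order too, at 33.5% in replicate 2, 30.9% in replicate 1 and 28.6% in replicate 3. Its part in the spread was not tested. With cellularization replicate 2 left out, the ratio of the median coefficient of variation over the 1000 most abundant genes, cellularization over syncytium, was 1.66, against 2.67 with all libraries. The first ratio sets a coefficient over 2 cellularization libraries against a coefficient over 3 syncytium libraries, so it is not on the same footing as the second.

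**Figure D5:**
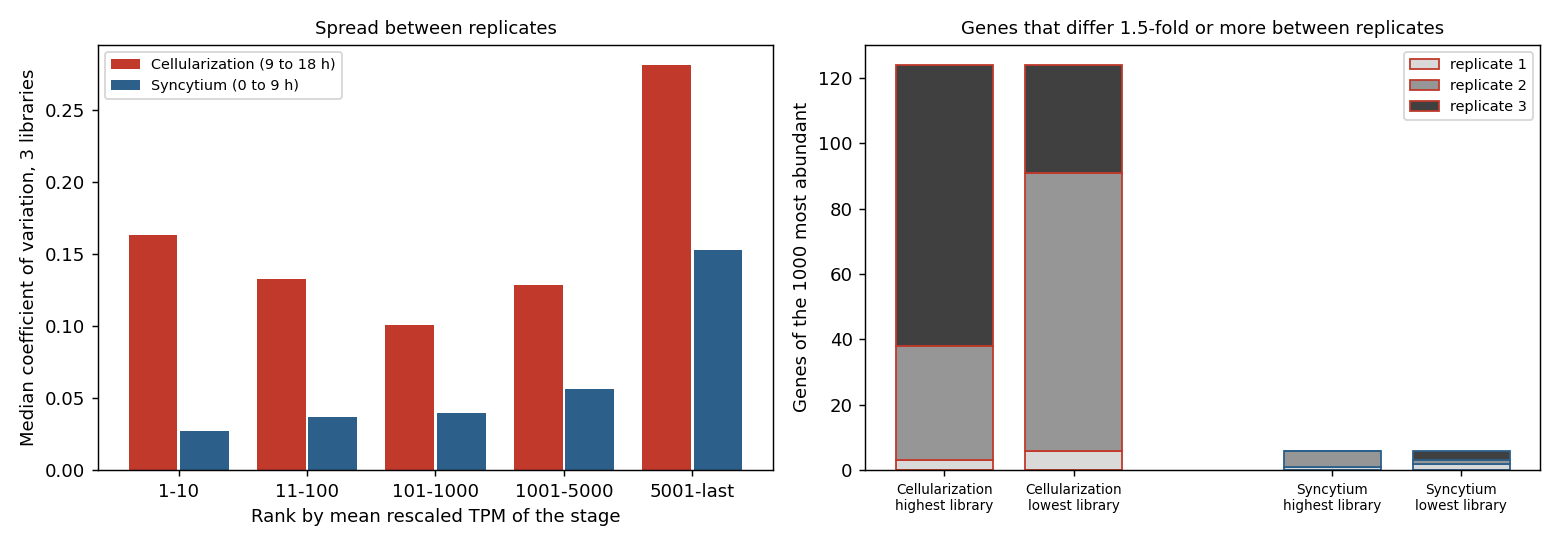
Left, median coefficient of variation of rescaled TPM over the 3 libraries of a stage, by rank class of the gene's mean level, with cellularization left of syncytium; right, the genes among the 1000 most abundant that differ 1.5-fold or more between libraries of a stage, divided by the replicate in which they are highest or lowest. Cellularization is higher in every rank class, and 86 of its 124 such genes are highest in replicate 3.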

How the data were processed

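Groups, replicate numbers and collection windows were taken from the sample labels. Per the file headers, the deposited tables hold for each contig its length and effective length in bases, an estimated count and a TPM. The authors made the TPM and estimated counts on 1 assembly per stage; per the submitters' processing notes, the tools were kallisto 0.44.4, MultiQC 1.5 and FastQC 0.11.7. Deposited estimated counts of 1000000 or more carry 3 digits. The contig names have Trinity's form; its version, read trimming and strand setting are not stated in the labels or headers. Contig values were summed per gene, genes under 1000 bases by their longest contig were left out, and TPM was rescaled to 1000000 over the rest (Python 3.11.15, NumPy 2.4.6, pandas 2.3.3). Stage means were compared with two-sided exact permutation tests over libraries, checked on simulated libraries with known answers. The simulated libraries were drawn from syncytium levels with the same spread for every gene, so they do not carry the wider spread seen at cellularization. The genes named are the 2 of highest mean level in each stage. The members, measures and lists were chosen with earlier results of these data known. Alternatives covered the quantity, length minimum, rescaling, feature, gene length, top genes, listed genes, low counts, depth and replicates. Gastrulation libraries were not used here.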

Additional observations from a re-analysis of the deposited data

Results flagged for a closer look

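The genes left out of the comparison, those with every contig under 1000 bases, took 31.0% ± 2.46 of the deposited TPM at cellularization and 26.1% ± 0.274 in syncytium libraries (SD, 3 libraries per stage). They were singled out because this signal outside the measured pool was higher in every cellularization library than in any syncytium library. Of all assembled genes, 76713 at cellularization and 45798 in the syncytium, the long genes are 15200 and 14243, so the cellularization assembly also lists more of the genes left out.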

How the results depend on the processing

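The shares of the 10, 100 and 1000 most abundant long genes, the number that hold 50% of the pool, the effective number and the numbers at 10 and 100 TPM kept their direction and their lack of overlap under every alternative run. Settings that change only the length given to a gene cannot move these measures, and TPM as deposited cannot move the effective number. The top 10 difference ranged from 0.307 points (without the 100 most abundant genes) to 12.8 points (longest contig of 2000 bases or more). The 3 length measures did not. The TPM-weighted median length, 293 bases longer at cellularization, differed by -18.3 with no length minimum, -102 for single contigs, -119 by the TPM-weighted mean contig length, -233 by the leading contig and 19.3 without the 10 most abundant genes. The share of 5000 bases or more, 6.79 percentage points higher, was -1.09 by the TPM-weighted mean length, -1.19 by the leading contig, -0.707 among genes with a leading contig of 1000 bases or more and 0.269 without the 10 most abundant genes. It stayed higher without overlap for single contigs, by 0.540 points, by estimated counts, by 5.13, and summed per component, by 6.89. The share of 1000 to under 2000 bases, 4.23 points lower, was -1.35 for single contigs, -0.190 by the TPM-weighted mean length and 1.34 without the 10 most abundant genes. Differences that turned round elsewhere were as follows, in points. For single contigs they were 0.351 (ranks past 100 to 1000), 0.313 (1500 to under 2000 bases), 2.94 (2000 to under 3000) and -2.14 (3000 to under 5000). By the TPM-weighted mean length they were 5.59, 0.807 and -4.86 for these 3 length classes, and by the leading contig 0.163 and -4.90 for the last 2 of them. Without the 10 most abundant genes they were 0.905 (ranks past 100 to 1000), 0.0548 (1000 to under 1500 bases) and 1.29 (1500 to under 2000). Without the 100 most abundant they were 2.66 (ranks past 100 to 1000), 0.845 (1500 to under 2000) and 0.647 TPM for the median of 5000 bases or more. Among genes with a leading contig of 1000 bases or more they were 0.714 (ranks past 100 to 1000) and 1.55 (1500 to under 2000), and by counts 1.04 (ranks past 100 to 1000). Genes at 1000 TPM or more differed by -8.67 summed per component and by -7.00 with a 2000-base minimum, both against 4.67; they were higher at cellularization without overlap by 5 to 30.3 under 7 other settings of the values or genes. Apart from the changes that follow from the length or gene set used, the cause was not tested. Leaving out 1 library changed no call of the 10 measures; the top 10 share then differed by 6.12 to 7.98 points. The ratio of replicate spread, 2.67, ranged from 1.66 (without cellularization replicate 2) to 3.91 (without syncytium replicate 1). With a library left out, this ratio rests on unequal numbers of libraries per stage and is not directly comparable with 2.67. With the replicate block, the top 10 share differed by 7.03 points with an exact p of 0.25, the smallest for 3 pairs; same-numbered libraries correlated at 0.527, 0.104 and -0.157 over 40 length bins, so the numbers were not taken to pair them. The leading-contig settings, the removal of 100 genes and the settings of the replicate spread were chosen after seeing the data. Stage and assembly are confounded, and TPM of short contigs rests on small effective lengths.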
